A study of Mus musculus with 36 samples.

Results

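The genes described here encode connexins, the proteins that form gap junctions, and are the 6 rows of the deposited expression table named Gja1, Gjb2, Gjb6, Gjc1, Gjc3 and Gjd2, of 19909 genes in all. The study profiled RNA from 8-week-old C57BL/6 mice in 36 libraries, and its labels name no transgene. Of these, 28 came from 8 populations sorted by flow cytometry (FACS) straight from homogenates of the subependymal zone (SEZ), the stem cell niche along the lateral ventricles of the adult brain. The labels call these populations qNSC, pNSC, aNSC and NPC1 (4 libraries each) and NPC2, NB1, NB2 and Other (3 libraries each), names that are read here as quiescent, primed and activated neural stem cells, progenitors and neuroblasts only by common usage. The other 8 libraries came from neurospheres, free-floating cultures of SEZ cells kept with EGF and FGF. At passage 4 these cells were given the dye DFFDA at 2 ug/ml, grown for a further 4 days and sorted into DFFDA_H and DFFDA_L (4 libraries each), which the series describes as differing in their proliferative kinetics. Which surface markers defined the sorted gates was not stated in the labels used here.

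Connexins assemble in groups in the cell membrane as hemichannels, and hemichannels of neighbouring cells dock to form gap junctions through which ions and small metabolites pass. Astrocytes and the astrocyte-like stem cells of the SEZ are known for gap junctions built from the products of Gja1 (Cx43) and Gjb6 (Cx30), and the product of Gjb2 (Cx26) is found in astrocytes and in the leptomeninges. Gjc1 (Cx45) is widely transcribed in embryonic tissues and neural precursors, Gjc3 (Cx29) in the oligodendrocyte and Schwann cell lineages, and Gjd2 (cx36) in neurons, where it forms electrical synapses.

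In the GENCODE annotation of build GRCm38, Gja1 (ENSMUSG00000050953) lies on the forward strand of chromosome 10 at chr10:56377330-56402513. Gjb2 (ENSMUSG00000046352, chr14:57098600-57104702) and Gjb6 (ENSMUSG00000040055, chr14:57123303-57133611) are neighbours on the reverse strand of chromosome 14, 18.6 kb apart. Gjc1 (ENSMUSG00000034520, chr11:102799579-102819700), Gjc3 (ENSMUSG00000056966, chr5:137953461-137963098) and Gjd2 (ENSMUSG00000068615, chr2:114009601-114013619) are also on the reverse strand. The coding part lies in 1 exon in Gja1, Gjb2, Gjb6 and Gjc1 and in 2 exons in Gjc3 and Gjd2. Exons of Gjd2 overlap those of A530058N18Rik on the opposite strand. The library kit does not mark strand, so reads of Gjd2 and of this gene cannot be told apart where they overlap.

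Gja1, Gjb2 and Gjb6 carry the main pattern below, since all 3 were high in qNSC and pNSC and lower in aNSC, and the 250 bases before the RefSeq start of each are shown here 5′ to 3′ (build GRCm38.p6). The windows are chr10:56377050-56377299 on the forward strand for Gja1, and chr14:57104703-57104952 and chr14:57133612-57133861 on the reverse strand for Gjb2 and Gjb6. Capitals mark matches, on either strand, to a GC box (GGGCGG), an AP-1 site (TGANTCA) or a TATA box (TATAAA). Matches to 4 other motifs searched are not in capitals.
Gja1: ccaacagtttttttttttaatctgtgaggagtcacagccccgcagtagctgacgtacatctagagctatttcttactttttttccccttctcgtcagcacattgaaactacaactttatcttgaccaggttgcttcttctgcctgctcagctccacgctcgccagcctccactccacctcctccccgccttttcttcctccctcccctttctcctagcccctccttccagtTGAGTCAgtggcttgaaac
Gjb2: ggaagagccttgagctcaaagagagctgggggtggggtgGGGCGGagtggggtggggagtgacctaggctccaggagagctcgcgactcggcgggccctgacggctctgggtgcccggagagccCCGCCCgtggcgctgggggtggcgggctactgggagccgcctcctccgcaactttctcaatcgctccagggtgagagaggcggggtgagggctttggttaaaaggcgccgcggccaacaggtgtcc
Gjb6: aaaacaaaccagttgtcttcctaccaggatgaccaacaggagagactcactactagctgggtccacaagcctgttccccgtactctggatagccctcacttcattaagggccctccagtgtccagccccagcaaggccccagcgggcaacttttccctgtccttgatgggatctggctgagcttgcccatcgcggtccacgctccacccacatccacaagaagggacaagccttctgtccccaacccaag
The 3 windows differ in base composition and share none of the motifs in capitals. Each holds 1 match to an E-box (CANNTG), as 66.2% of all windows hold at least 1. The Gjb2 window also holds 1 match to an NFI core (TTGGC, in 41.5% of windows), and no window of the 3 matched the RBPJ core (TGGGAA, 21.6%) or a CRE (TGACGTCA, 1.55%). The Gja1 window has 50% G and C, 6 CpG dinucleotides and 1 AP-1 match that begins 19 bases before the start, a motif found in 6.75% of the 32851 RefSeq windows of this length. The Gjb2 window has 69.2% G and C, 18 CpG dinucleotides and 2 GC box matches, a motif found in 32.7% of windows. The Gjb6 window has 56.8% G and C, 5 CpG dinucleotides and no match to the motifs in capitals. Over all windows the median was 52.4% G and C and 6 CpG dinucleotides, and 12.4% held a TATA box match. Of the other members, the Gjd2 window had 74% G and C with 33 CpG dinucleotides and the Gjc3 window 48.8% with 3. Gjc1 was not matched to a window.

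The values are the authors' log2 expression values, whose scale is like that of log2 CPM, read counts relative to the total of a library, and every level below is on that scale unless a level per kilobase is named. Total reads are not given. Each library has a lowest value, its floor, which its least detected genes share, and the floors ran from -5.06 to -2.18, with 362 to 3932 genes at the floor of a library. The highest floor, -2.18, is that of qNSC replicate 1, while the other qNSC libraries have floors of -4.73 to -4.19. A difference that involves libraries at the floor therefore depends in size on where the floor lies. Astroglial markers (10 genes) summed to a linear level of 14666 to 16328 in qNSC and 12360 to 15823 in pNSC and to 221 to 299 in NB1. Neuroblast markers (8 genes) summed to 162 to 282 in qNSC and 8652 to 8861 in NB2. The labels give no cell type for Other.

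Gja1 had its highest level in qNSC and pNSC. The 4 qNSC libraries read 11.52, 11.52, 11.43 and 11.43, and the 4 pNSC libraries 11.18, 11.37, 11.31 and 11.52. These ranges overlap, and the difference of -0.13 did not pass the test (limma, 95% interval -0.84 to 0.59, Benjamini-Hochberg adjusted p 0.817). In aNSC the values were 6.51, 7.44, 7.20 and 7.41, far below all qNSC and pNSC libraries. In NPC1 they were 3.72, 6.05, 6.01 and 6.15, in NPC2 5.80, 5.86 and 5.58, in NB1 3.54, 3.52 and 3.14, and in NB2 3.49, 3.10 and 4.19. The means of NB1 and NB2 were the lowest of the 10 groups. Other had 6.23, 6.78 and 7.13, which overlaps aNSC. The cultured cells lay between pNSC and aNSC, with 9.32, 9.10, 9.17 and 9.34 in DFFDA_H and 8.44, 8.68, 8.31 and 8.53 in DFFDA_L. In the order of group means from qNSC down, neighbours whose libraries overlapped were qNSC and pNSC, aNSC and Other, NPC2 and NPC1, NPC1 and NB2, and NB2 and NB1.

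Gjb6 was also high in qNSC and pNSC and low in aNSC. It read 8.92, 8.93, 8.99 and 9.03 in qNSC and 8.05, 8.30, 8.71 and 8.78 in pNSC, so that all pNSC values lay below all qNSC values. In aNSC it read -4.71 (at the floor), -0.06, 0.22 and 1.75. The levels were also low in the NPC and NB populations, from 0.46 to 2.66 in NPC1, 0.55 to 2.50 in NPC2, -1.93 to 0.30 in NB1 and 0.11 to 1.39 in NB2. All NB1 values lay below all NPC1 and NPC2 values, and NB2 overlapped all 3 of these groups. Other had 2.55, 3.13 and 4.61, which overlaps NPC1. In culture Gjb6 was at or near the floor, with 2 of 4 DFFDA_H libraries and 3 of 4 DFFDA_L libraries at it and the remaining ones from -4.79 to -3.61.

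Gjb2 was detected well above the floor in 2 populations. The qNSC libraries read 6.21, 5.36, 5.41 and 5.54 and the pNSC libraries 3.81, 4.55, 4.16 and 4.71, without overlap. In aNSC 3 of 4 libraries were at the floor and replicate 4 read -2.99. All 3 NPC2 and all 3 NB1 libraries were at the floor as well. The highest value outside qNSC and pNSC was -1.61, in a DFFDA_H library, and Other read -2.49, -2.17 and -1.99.

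**Figure D1:**
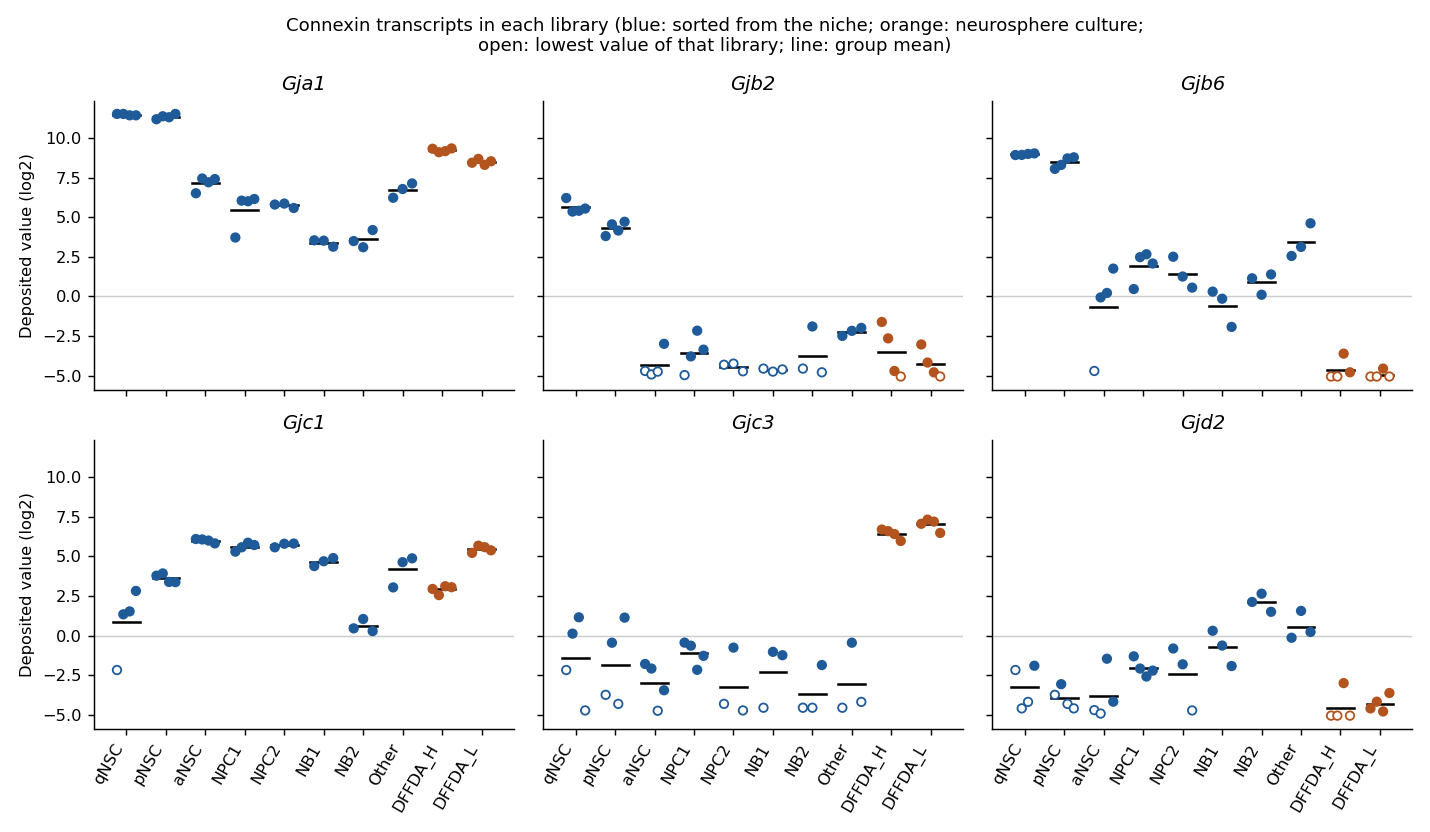
Deposited log2 value of each of the 6 connexins (panels) in every library (points) of the 10 populations (horizontal axis), with open points for libraries at their floor and lines for group means. Gja1, Gjb2 and Gjb6 were highest in qNSC and pNSC, Gjc1 in aNSC, NPC1, NPC2 and DFFDA_L, Gjc3 in the 2 cultured populations and Gjd2 in NB2.

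Between qNSC and pNSC, 1 of the 5 members tested passed. Over all 17788 genes tested in the freshly sorted libraries, 22.3% passed in this comparison, 14.2% higher and 8.06% lower in pNSC. Gjc1 rose in pNSC, with 3.78, 3.92, 3.38 and 3.37 against -2.18 (at the floor), 1.34, 1.52 and 2.82 in qNSC, and no pNSC library overlapped qNSC. The difference was 2.74 ± 0.58 on the log2 scale (SE, adjusted p 0.00137). It was 1.72 without qNSC replicate 1 (adjusted p 0.000653), and its adjusted p was 0.0744 when only qNSC and pNSC were fitted. Gjb2 and Gjb6 had lower values in all 4 pNSC libraries than in all 4 qNSC libraries, but neither passed. The differences were -1.32 for Gjb2 (95% interval -2.64 to 0.0010, adjusted p 0.141) and -0.51 for Gjb6 (-2.24 to 1.22, adjusted p 0.695). For Gjb2 the adjusted p was 0.0212 when only the 2 groups were fitted and 4.36e-05 with values below 0 set to 0. The median difference of the 5 members was -0.51 and that of all genes tested -0.05. Gjc3 was not tested among the freshly sorted libraries, because in none of the 8 populations did 3 libraries reach the detection limit of 0 on the log2 scale.

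From pNSC to aNSC, 4 of the 5 members tested passed, 3 lower and 1 higher in aNSC. Over all genes tested 48.3% passed, 19.9% lower and 28.4% higher. Gja1 fell by 4.21 on the log2 scale (SE 0.35, adjusted p 2.94e-10), a level 18.4-fold higher in pNSC than in aNSC. Gjb6 fell by 9.16 (SE 0.84, adjusted p 2e-09) and Gjb2 fell by 8.65 (SE 0.64, adjusted p 4.31e-11), with no overlap between the groups for any of the 3. Both of the last sizes depend on the floor: with all values below 0 set to 0 they became -7.97 for Gjb6 and -4.31 for Gjb2, and both still passed. Gjc1 rose by 2.38 (SE 0.58, adjusted p 0.00153), from 3.37 to 3.92 in pNSC to 5.82 to 6.09 in aNSC. The median of the 5 members was -4.21, against 0.22 over all genes tested. In bulk libraries, fewer cells with a transcript and less RNA per cell cannot be told apart.

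The span from qNSC to aNSC gave 4 calls, 1 higher and 3 lower in aNSC, and 62.3% of all genes passed, 35.3% higher and 27.1% lower. It shares the qNSC and aNSC libraries with the 2 comparisons above. Gja1 was 20.2-fold higher in qNSC than in aNSC (log2 difference -4.33, SE 0.35, adjusted p 4.99e-11), and the differences were -9.97 for Gjb2 and -9.67 for Gjb6 (adjusted p 7.52e-13 and 2.24e-10). Gjc1 rose by 5.12 (SE 0.58, adjusted p 2.7e-08), and by 4.10 without qNSC replicate 1. Mki67, which is transcribed in cycling cells, was higher by 5.22 in aNSC in the same comparison (adjusted p 3.36e-13). It rose by 3.27 from qNSC to pNSC and by 1.95 from pNSC to aNSC (adjusted p 7.21e-08 and 1.99e-05). Gjd2, which was at or near the floor in qNSC, pNSC and aNSC, did not pass in any of these 3 comparisons (adjusted p 0.566 to 0.923).

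Markers of other cell types also differed between these groups. From qNSC to pNSC, where Gjc1 rose, 7 of 8 neuroblast markers passed as higher (summed level 162 to 282 in qNSC and 574 to 1720 in pNSC). So did 4 of 9 microglial markers (157 to 483 and 334 to 649) and 14.2% of all genes. From pNSC to aNSC, where Gjc1 rose again, 2 neuroblast markers passed as higher and 4 as lower. Of the microglial markers 0 passed as higher and 4 as lower in that step, with 28.4% and 19.9% of all genes. The leptomeningeal fibroblast list (4 of 6 genes in the table) summed to 21.6 to 43.9 in qNSC. Its sum was 3.73 to 32.3 in pNSC and 0.153 to 3.60 in aNSC. Its gene Dcn was low in all 3 groups, with means of -2.27 in qNSC and -1.37 in pNSC. It was at the floor in 2 of 4 libraries of each of these 2 groups and in every aNSC library. The ependymal list (7 of 7) summed to 143 to 174, 50.7 to 108 and 13.0 to 22.3, and the mural cell list (5 of 8) to 120 to 163, 22.3 to 147 and 1.11 to 5.91. Most of the mural sum in qNSC came from Pdgfrb, at a mean log2 level of 7.11, while Rgs5 averaged 0.48 and Vtn 0.45. Astroglial markers, at 1662 to 3106 in aNSC, changed in the same direction as Gja1, Gjb2 and Gjb6. The part of these cells in the connexin differences was not tested.

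Gjb2 and Gjb6 have 1 annotated gene between them, Gm4491, and it too was higher in qNSC and pNSC than in the other groups. Gm4491 averaged 3.59 in qNSC, 2.08 in pNSC and -4.64 in aNSC and was between -5.06 and -3.20 in the remaining groups. It fell by 6.72 from pNSC to aNSC (SE 0.76, adjusted p 7.16e-08), a size that depends on the floor. Of the other genes of the table within 200 kb of the pair, Cryl1, a lambda-crystallin gene, also fell from pNSC to aNSC, by 1.57 (SE 0.41, adjusted p 0.00247), and Zmym2, a zinc finger gene, averaged 5.99 in pNSC and 6.27 in aNSC. No test compared these genes with Gjb2 and Gjb6.

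**Figure D2:**
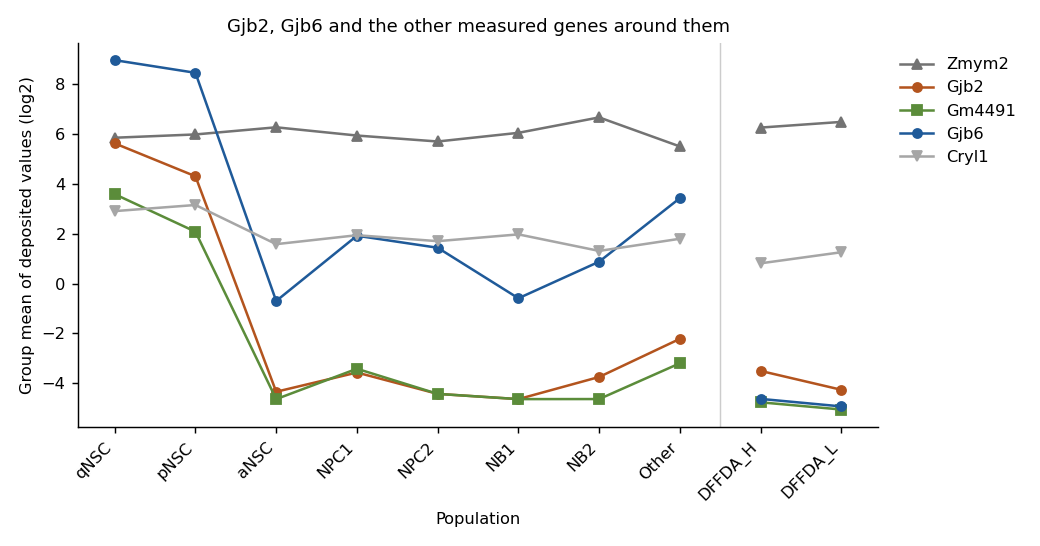
Group means of the deposited log2 values (vertical axis) of Gjb2, Gjb6, the gene between them (Gm4491) and the other 2 measured genes within 200 kb, over the 10 populations (horizontal axis), with niche and cultured populations on either side of the grey line. Gjb2, Gjb6 and Gm4491 drop between pNSC and aNSC, while Zmym2 stays between 5.50 and 6.67 in all groups.

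From aNSC to NPC1 Gja1 fell further. NPC1 against aNSC gave 2 of 5 members passed, 1 higher and 1 lower, with 12.7% of all genes (6.24% higher and 6.48% lower). Gja1 fell by 1.66 (SE 0.35, adjusted p 0.00202), to a mean of 5.48 ± 1.18 (SD, n = 4), and all NPC1 libraries lay below all aNSC libraries. NPC1 replicate 1, at 3.72, stood apart from the other 3, and without it Gja1 fell by 1.07 (adjusted p 0.00264). Gjb6 rose by 2.62 (SE 0.84, adjusted p 0.0388), but the groups overlapped. Without aNSC replicate 1, the library at the floor, its difference was 1.28 and its adjusted p 0.165, and leaving out aNSC replicate 2 or NPC1 replicate 2, 3 or 4 also took it past 0.05 (adjusted p 0.0556 to 0.104). Gjc1 read 5.30, 5.57, 5.86 and 5.71 in NPC1 and 5.57, 5.79 and 5.81 in NPC2, near its level in aNSC. Its difference between NPC1 and aNSC of -0.38 did not pass (95% interval -1.58 to 0.82, adjusted p 0.744), and its adjusted p was 0.0438 when only these groups were fitted. Between NPC2 and NPC1 none of the 5 members passed (adjusted p 0.782 to 0.986 in limma, with 0 of 5 at an unadjusted p under 0.05), and 1.34% of all genes did (0.202% higher and 1.14% lower in NPC2).

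NB1 had less Gja1 than NPC2, and NB2 less Gjc1 than NB1. From NPC2 to NB1, Gja1 fell by 2.35 (SE 0.40, adjusted p 0.000355), a level 5.09-fold higher in NPC2, and was the 1 member of 5 that passed, with 7.67% of all genes (3.78% higher and 3.88% lower in NB1). Gjc1 read 4.39, 4.69 and 4.89 in NB1, all below NPC2, but its difference of -1.07 did not pass (adjusted p 0.412, and 0.00285 when only NB1 and NPC2 were fitted). From NB1 to NB2, 2 of 5 members passed, 1 higher and 1 lower in NB2, with 24.6% of all genes (10.4% higher and 14.2% lower). Gjc1 fell by 4.06 (SE 0.67, adjusted p 6.55e-05) to 0.45, 1.04 and 0.28 in NB2, and its level was 16.7-fold higher in NB1. Mki67 fell by 1.66 in that step (adjusted p 0.0016) and did not pass from NPC2 to NB1 (-0.09, adjusted p 0.951). Gjc1 and Mki67 were not tested against each other. Gja1 did not pass (0.20, 95% interval -0.63 to 1.02, adjusted p 0.771).

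Gjd2, the neuronal connexin, had its highest level in NB2, at 2.12, 2.64 and 1.50. It read 0.30, -0.63 and -1.93 in NB1 and -0.14, 1.56 and 0.22 in Other, and -4.73 to -0.82 in NPC1 and NPC2. From NB1 to NB2 it rose by 2.84 (SE 1.00, adjusted p 0.0397), with no overlap between the groups. Leaving out NB1 replicate 2 or 3 or any 1 of the NB2 libraries took the adjusted p to between 0.061 and 0.171. Mature neuron markers (7 genes) summed to 139 to 159 in NB2 and 47.3 to 69.6 in NB1, and the glutamatergic neuron gene Slc17a7 was at the floor in every NB1 and NB2 library. The overlapping antisense gene A530058N18Rik averaged -1.09 ± 1.64 in NB2 and -2.16 ± 1.51 in NB1 (SD, n = 3 each), and its highest mean was 1.23 ± 1.24, in Other. The part of either in the Gjd2 values was not tested.

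**Figure D3:**
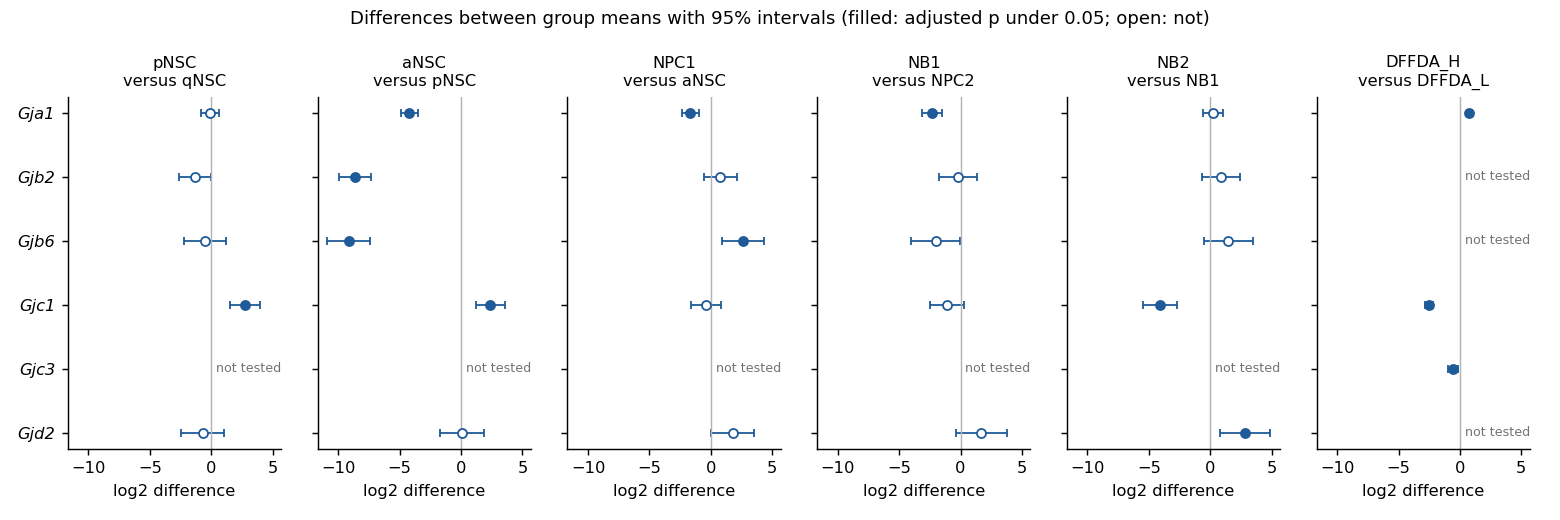
Log2 difference between group means (points, horizontal axis) with 95% intervals for each connexin (vertical axis) in 6 comparisons (panels), filled where the adjusted p was under 0.05. Gja1 fell at 3 of the steps shown, by 4.21 from pNSC to aNSC, 1.66 from aNSC to NPC1 and 2.35 from NPC2 to NB1, while Gjc1 rose at the first 2 steps and fell by 4.06 from NB1 to NB2.

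The population labelled Other was compared with the average of the 7 named niche populations, each given the same weight, and 1 of 5 members passed, where 54.3% of all genes did (25.9% higher and 28.4% lower in Other). Gjd2 was higher by 2.57 (SE 0.75, adjusted p 0.00564), but its libraries overlapped those of the named populations, NB2 among them. The call was lost without Other replicate 2 (2.06, adjusted p 0.0655) and with values below 0 set to 0 (0.28, adjusted p 0.256). Gja1, Gjb2, Gjb6 and Gjc1 did not pass (adjusted p 0.314 to 0.653), though Gjb2 was lower with values below 0 set to 0 (-1.42, adjusted p 3.96e-07). Mki67 was lower in Other in this comparison (-1.72, adjusted p 1.32e-05). Other also held endothelial markers (8 of 8 genes) at a summed level of 571 to 1663, against at most 12.1 in the 7 named populations, and mural markers at 139 to 1882. Of the neuroblast markers 7 of 8 were higher in Other, where they summed to 5946 to 8090, and Stmn2 averaged 10.27 in Other and 9.99 in NB2. Their part in these values was not tested.

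In culture the 2 populations sorted by dye differed in Gja1, Gjc1 and Gjc3, the 3 members that passed the detection filter, and all 3 passed the test, where 43.8% of 15956 genes did (21.6% higher and 22.3% lower in DFFDA_H). Gja1 was 1.68-fold higher in DFFDA_H, by 0.74 on the log2 scale (SE 0.091, adjusted p 3.41e-05), without overlap. Gjc1 read 2.94, 2.55, 3.11 and 3.05 in DFFDA_H and 5.22, 5.67, 5.58 and 5.38 in DFFDA_L. It was 5.85-fold higher in DFFDA_L (log2 difference -2.55, SE 0.16, adjusted p 3.24e-07). Gjc3 read 6.69, 6.59, 6.41 and 5.97 in DFFDA_H and 7.05, 7.32, 7.19 and 6.48 in DFFDA_L. These ranges overlap, and Gjc3 was lower by 0.60 in DFFDA_H (SE 0.19, adjusted p 0.0239). The adjusted p was between 0.0521 and 0.0797 without DFFDA_H replicate 4 or without DFFDA_L replicate 1, 2 or 3. Mki67 was lower in DFFDA_H by 2.41 (adjusted p 5.76e-07).

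Gjc3 separated culture from niche. In the 28 freshly sorted libraries its highest value was 1.15, in a qNSC library, and 12 of them were at the floor. The lowest cultured library, at 5.97, lay above all of them. In the model of all 36 libraries (19158 genes) the difference was 7.82 for DFFDA_H against qNSC (SE 1.16, adjusted p 3.98e-07) and 10.03 for DFFDA_L against aNSC (SE 1.16, adjusted p 3.65e-09), sizes that depend on the floor (6.10 and 7.01 with values below 0 set to 0). Oligodendrocyte precursor markers (6 genes) summed to 786 to 1493 in the cultured libraries and 4.40 to 91.1 in the freshly sorted ones, and oligodendrocyte markers (8 genes) to 191 to 278 and 172 to 717. Most of the precursor sum in culture came from Olig1, which averaged 9.65 in DFFDA_H and 9.64 in DFFDA_L and 1.66 to 5.85 in the freshly sorted groups. In DFFDA_H against qNSC 2 of the 6 precursor markers passed as higher and 2 as lower, and in DFFDA_L against aNSC 3 and 1. Pdgfra, a defining precursor gene, averaged -0.92 in DFFDA_H and 1.84 in DFFDA_L, within its range of -1.16 to 3.00 over the freshly sorted groups. The part of such cells in the Gjc3 level was not tested. Culture and niche differ in origin, dye loading and growth factors together, and these cannot be told apart.

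The cultured populations were also set beside niche cells for the other members, DFFDA_H beside qNSC and DFFDA_L beside aNSC. For DFFDA_H against qNSC 5 of 6 members passed, 2 higher and 3 lower in DFFDA_H, with 74.2% of all genes (37.2% higher and 36.9% lower). Gja1 was lower in culture by 2.24 (-2.24, SE 0.31, adjusted p 1.25e-07), a level 4.73-fold higher in qNSC. Gjb2 and Gjb6 differed by -9.14 and -13.60 (adjusted p 1.47e-13 and 1.64e-16), sizes that depend on the floor. Gjc1 was higher in DFFDA_H by 2.04 (SE 0.53, adjusted p 0.000882), though the groups overlapped. It was higher by 1.02 without qNSC replicate 1, and its adjusted p was 0.0539 with only these 2 groups. Gjd2 did not pass (-1.33, adjusted p 0.126), but did without DFFDA_H replicate 3 (-1.84, adjusted p 0.0471). For DFFDA_L against aNSC 3 of 6 members passed, 2 higher and 1 lower in DFFDA_L, with 70.1% of all genes (31.4% higher and 38.7% lower). Gja1 was higher in culture by 1.35 (SE 0.31, adjusted p 0.000306). Gjb6 was lower by 4.23 (-4.23, SE 0.78, adjusted p 1.43e-05) with overlapping groups, a call that was lost with values below 0 set to 0 (-0.49, adjusted p 0.334). Gjc1 did not pass (-0.53, 95% interval -1.60 to 0.54, adjusted p 0.373), and its adjusted p was 0.00108 with only these 2 groups. Mki67 was lower in DFFDA_L than in aNSC (-1.94, adjusted p 1.02e-06). It was higher in DFFDA_H than in qNSC by 0.87 (adjusted p 0.0102), with overlapping groups.

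For 4 members the difference between DFFDA_H and DFFDA_L was smaller than that between qNSC and aNSC. This test of the difference, DFFDA_H minus DFFDA_L against qNSC minus aNSC, was added after the data were seen, and 42.3% of all genes passed it (24.0% with a positive and 18.3% with a negative difference). For Gja1 the contrast was 0.74 in culture and 4.33 in the niche, a difference of -3.59 (SE 0.44, adjusted p 7.16e-08). For Gjc1 it was -2.55 and -5.12, so that Gjc1 was lower in DFFDA_H and in qNSC, and the difference was 2.57 (SE 0.74, adjusted p 0.00554). It was 1.55 without qNSC replicate 1 (adjusted p 0.00334). For Gjb2 and Gjb6, which were near the floor in both cultured groups, the differences were -9.22 and -9.37 (adjusted p 3.74e-09 and 2.91e-08). Both sizes depend on the floor, and with values below 0 set to 0 they were -5.63 and -8.48. Gjc3 and Gjd2 did not pass (adjusted p 0.296 and 0.577), though Gjc3 did with values below 0 set to 0 (-0.91, adjusted p 0.0245).

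Levels per kilobase of annotated exon allow a rough comparison of the connexins with each other. The length used joins the exons of all annotated transcripts of a gene, whichever are present in these cells. It was 10.257 kb for Gja1 (8 transcripts), 5.003 kb for Gjc1 (5) and 2.879 kb for Gjd2 (1), and the orders below depend on it. Before this division Gja1 and Gjc1 averaged 7.14 and 5.99 in aNSC and 5.75 and 5.72 in NPC2. In qNSC the mean log2 level per kilobase was 8.12 for Gja1, 7.55 for Gjb6 and 4.36 for Gjb2, which placed them at percentiles 99.4, 98.9 and 83.6 of all genes with a length, and -1.45 for Gjc1 (percentile 20.5). In aNSC Gja1 (3.78) and Gjc1 (3.67) were nearly level, at percentiles 76.6 and 75.2, and Gjb6 was at -2.12. In NPC1, NPC2 and NB1 Gjc1 was above Gja1, with 3.29 against 2.12 in NPC1, 3.40 against 2.39 in NPC2 and 2.33 against 0.04 in NB1. In NB2 the highest of the 6 per kilobase was Gjd2, at 0.56 ± 0.57 (SD, n = 3, percentile 35.6), followed by Gja1 at 0.24 ± 0.55. Before division by length Gja1 was the higher of the 2 in NB2, with a mean of 3.60 against 2.09. In DFFDA_L Gja1 (5.13) and Gjc3 (4.89) were the leading connexins. These orders are descriptions of group means and were not tested between genes.

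**Figure D4:**
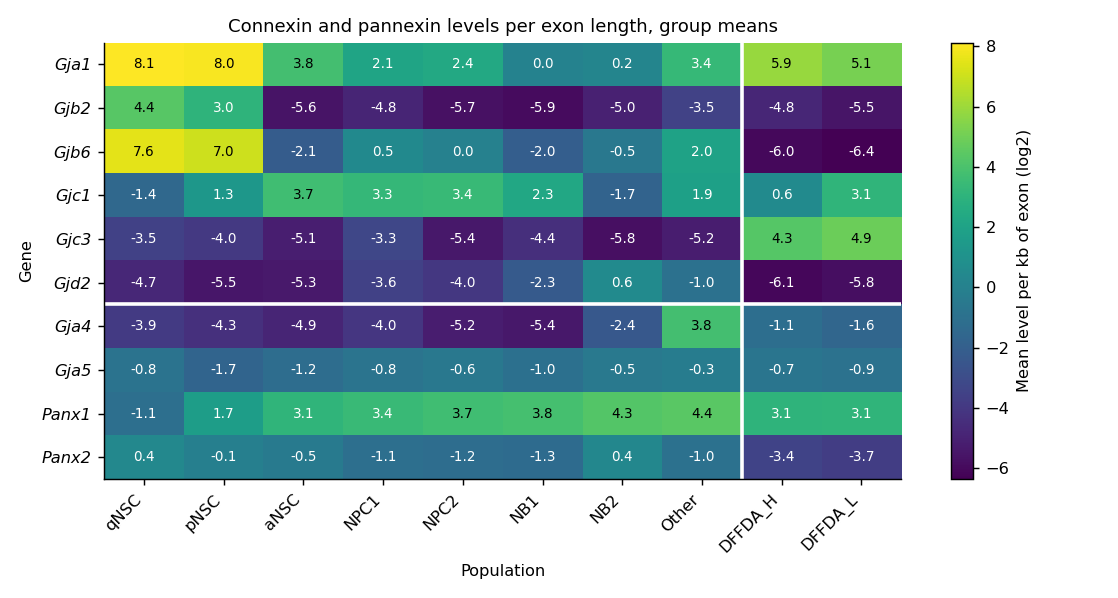
Mean log2 level per kilobase of exon of the 6 connexins (upper rows) and of the 4 other connexin and pannexin genes of the table (lower rows) in the 10 populations (columns), as numbers and colour. Gja1 and Gjb6 lead in qNSC and pNSC, Gjc1 lies above Gja1 in NPC1, NPC2 and NB1, and Gjc3 is high only in the 2 cultured columns.

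Of 17 other connexin and pannexin genes looked for, 4 were in the table, Gja4, Gja5, Panx1 and Panx2. Gja4 (Cx37), a connexin of arterial endothelium, read 2.91, 5.59 and 5.14 in Other and at most -0.04 in every other library. It was higher in Other than in the mean of the named populations by 8.09 (SE 0.77, adjusted p 6.53e-09), or 4.54 with values below 0 set to 0. Its differences in NB2 against NB1 (3.00, adjusted p 0.0343) and in the 2 comparisons of culture with niche (2.74 and 3.28, adjusted p 0.00156 and 0.000254) all became 0 with values below 0 set to 0. The NB2 call was also lost without any 1 of 5 libraries (adjusted p 0.0715 to 0.193). Gja5 (Cx40), whose exons overlap those of Gpr89 on the opposite strand, lay between 0.85 and 2.23 in all group means and did not pass in any comparison (adjusted p 0.112 to 0.95, and 0.0265 for pNSC against qNSC without pNSC replicate 3).

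Panx1, a pannexin gene whose product forms channels in single membranes, had its lowest level in qNSC. Its libraries read -2.18 (at the floor), 2.79, 2.91 and 2.53 in qNSC and 4.57, 4.04, 4.58 and 3.99 in pNSC, and its group means went from 5.70 in aNSC to 6.86 in NB2. It rose by 2.78 from qNSC to pNSC (SE 0.62, adjusted p 0.00193), by 1.55 without qNSC replicate 1 (adjusted p 9.57e-08), and its adjusted p was 0.0959 with only these 2 groups. From qNSC to aNSC it rose by 4.19 (adjusted p 1.74e-06), and it was higher in DFFDA_H than in qNSC by 4.14 (adjusted p 4.76e-08). Against the mean of the 7 named populations Panx1 was higher in Other by 1.68 (adjusted p 0.01), with overlapping libraries. Panx2 fell by 0.85 from qNSC to aNSC (adjusted p 0.0416), a call lost without any 1 of 6 of the 8 libraries (adjusted p 0.055 to 0.125). Panx2 rose by 1.65 from NB1 to NB2 (SE 0.41, adjusted p 0.00427), from a mean of 0.55 in NB1, and read 1.95, 2.31 and 2.33 in NB2, above all NB1 libraries. In culture it read -2.65 to -0.71, below all freshly sorted libraries, and it was lower in DFFDA_H than in qNSC by 3.84 (-3.84, adjusted p 2.63e-10) and in DFFDA_L than in aNSC by 3.25 (-3.25, adjusted p 1.05e-08). With values below 0 set to 0 these were -2.25 and -1.40, and both still passed.

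Genes whose products bind, traffic or modify connexins changed in both directions (11 genes, all in the table). From qNSC to pNSC 4 passed as higher and 1 as lower, where 14.2% and 8.06% of all genes did. From pNSC to aNSC 5 and 2 passed (28.4% and 19.9% of all genes), and from DFFDA_L to DFFDA_H 1 and 2 of 10 tested (21.6% and 22.3%). Ctnnb1, the adherens junction and Wnt protein beta-catenin, rose by 1.45 from qNSC to pNSC (adjusted p 4.78e-05) and by 1.80 from pNSC to aNSC (adjusted p 4.58e-07). Nedd4, a ubiquitin ligase that acts on the Gja1 product, rose by 0.76 and 1.33 (adjusted p 0.00239 and 5.28e-07). Dbn1, the actin-binding protein drebrin, rose by 1.31 from qNSC to pNSC (adjusted p 0.000131). Cdh2 (N-cadherin) fell by 0.71 from pNSC to aNSC (adjusted p 0.000204). In culture Nedd4 was lower in DFFDA_H by 0.79 (-0.79, adjusted p 2.3e-05) and Cav1, a caveolar membrane protein gene, higher by 1.69 (adjusted p 0.000375). From NB1 to NB2 Cdh2 rose by 1.07 (adjusted p 2.6e-05).

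Across the 36 libraries, the genes most like each connexin were ranked by Pearson's r of log2 values among 19158 genes, as a description in which libraries of a group share their population. For Gja1 they included Nim1k (0.979) and the sphingosine phosphate receptor gene S1pr1 (0.976). For Gjb2 they were Tprkb (0.970), Gm20383 (0.958) and the steroid enzyme gene Hsd11b1 (0.957), and for Gjb6 Ppp1r1b (0.966), 1700003D09Rik (0.964) and Gm9925 (0.960). For Gjc1 they were Hmgb1 (0.916), a chromatin protein gene, Hells (0.898), a chromatin remodeller gene, and the threonine tRNA ligase gene Tars (0.896). For Gjc3 they were Gm9063 (0.931), Gm14253 (0.923) and Lhfpl3 (0.918), the last also on the oligodendrocyte precursor list, and for Gjd2 Enox1 (0.879), Gm16279 (0.872) and Dlgap4 (0.872). Among the members themselves, the highest r were 0.826 between Gjb2 and Gjb6 and 0.756 between Gja1 and Gjb2, and the lowest was -0.637 between Gja1 and Gjd2.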

How the data were processed

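Per the labels' protocols, SMARTer Ultra Low libraries of poly(A) RNA were sequenced on an Illumina NextSeq system. The deposited data are a single matrix of the authors' log2 values covering 19909 genes (1770 blank lines dropped), with no column of another sample. Per the submitters' processing notes, the reads passed through HISAT2 and featureCounts among other tools (FastQC, Trimmomatic, cutadapt, limma), whose roles are not given, on build GRCm38, also called mm10 there. No header names the unit: on the linear scale each column sums to 987637 to 987910 and column medians run from 3.53 to 3.56, as quantile-normalized log2 CPM would. Such values hide changes in total RNA per cell, and raw depth is unknown.

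Group means were estimated in R 4.3.3 by limma 3.58.1, with its robust, trended empirical Bayes moderation, for the 28 freshly sorted libraries, the 8 cultured ones, or all 36 for comparisons across origins. A gene was tested where 3 or more libraries of any group had a log2 value of 0 or above. P-values are two-sided and were Benjamini-Hochberg adjusted over all genes of a comparison, and 0.05 was the threshold. The fit was also run on simulated data with normal noise, the same spread in every group and no floor. Such data cannot show how it treats values at the floor or groups of unlike spread. The labels say biological replicates but not separate animals or cultures, so p-values reflect only how far these samples spread, which may be technical. Replicate numbers were not used as a block. Identifiers were matched to GENCODE M21 (19863 found) for coordinates and exon lengths, and upstream sequences and synonyms were taken from RefSeq for GRCm38.p6. Marker sums add linear values.

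The members and gene lists were chosen with earlier results of these data known. Named were all 6 members, the other connexins and pannexins, up to 4 partner genes with the smallest adjusted p in a comparison, and the 3 genes most like each member. Some genes that this rule names are not reported here. Mki67, the genes around Gjb2 and Gjb6 and the antisense gene were added after their values were seen. Alternatives were another filter, values below 0 set to 0, trimmed-mean centring, a replicate block, only the compared groups, and each library left out.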

Additional observations from a re-analysis of the deposited data

Results flagged for a closer look

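In 4 of the 36 sets of 4 libraries checked (6 connexins in 6 groups), 1 library lay far from the other 3 by the ratio of the gap to the whole range. For normally distributed values chance gives such a gap in about 1 set in 20. Whether these values are so distributed was not tested. That rate does not apply to the 3 sets of Gjb2, Gjb6 and Gjd2, whose other libraries are at the floor. Gja1 was 3.72 in NPC1 replicate 1, below the other NPC1 libraries at 6.01 to 6.15. Gjb2 was -2.99 in aNSC replicate 4, the library of that group above the floor. Gjb6 was -4.56 in DFFDA_L replicate 3 and Gjd2 was -3.003 in DFFDA_H replicate 3, while the other 3 libraries of each of these groups were at the floor.

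For 4 connexins the difference between DFFDA_H and DFFDA_L was unlike that between qNSC and aNSC by a test of the difference itself (limma, all 36 libraries). Of all genes 42.3% passed this test. The differences for the connexins were -3.59 for Gja1, -9.22 for Gjb2, -9.37 for Gjb6 and 2.57 for Gjc1 on the log2 scale. Gjb2 and Gjb6 were near the floor in both cultured groups, and their sizes depend on it. With values below 0 set to 0 they were -5.63 and -8.48.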

How the results depend on the processing

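Of 922 alternative values for single connexins, 879 kept their side of the threshold without a change of sign. Differences that became 0 with values below 0 set to 0 are counted among these, though they have no direction. Testing with no filter and centring each library on its trimmed mean changed none of 61 each. The floor and the shared spread of the fit moved more. With values below 0 set to 0, 2 connexins were called between pNSC and qNSC, Gjb2 being added. Over all genes 4721 were called there, against 3959 in the model reported. With only the compared groups fitted, 2 connexins were called between NB1 and NPC2, and 2690 of all genes (1364 in the model reported). Among genes with a mean log2 of at least 4, Gja1 was the only connexin left to test, except in DFFDA_H against DFFDA_L. All 14 values for single connexins kept their side of the threshold with this filter. Fewer connexins were called because fewer were tested, with 0 between pNSC and qNSC, between NB2 and NB1 and for Other. Gja1 alone gave 1 each for aNSC against pNSC or qNSC, NPC1 against aNSC, DFFDA_H against qNSC, DFFDA_L against aNSC and the test of the difference.

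Over all genes, fitting only the compared groups called 1380 genes between pNSC and qNSC (3959 in the model reported), 5054 between NPC1 and aNSC (2262), 561 between NPC2 and NPC1 (239), 2690 between NB1 and NPC2 (1364) and 6557 between NB2 and NB1 (4371), and the cause was not tested. A mean of at least 4 left fewer genes to test and called 5314 for aNSC against pNSC (8585), 6539 for aNSC against qNSC (11090), 5682 for Other (9654), 4318 for DFFDA_H against DFFDA_L (6995), 6779 for DFFDA_H against qNSC (14211), 6551 for DFFDA_L against aNSC (13434) and 5025 for the test of the difference (8108). Other against the mean of 7 populations uses all freshly sorted groups, so that fitting only the compared groups was not run for it.

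With 1 library left out in turn, 2429 to 4464 genes were called between pNSC and qNSC (lowest without pNSC replicate 1), 1335 to 2128 between NPC1 and aNSC (lowest without NPC1 replicate 1), 80 to 193 between NPC2 and NPC1 (lowest without NPC2 replicate 1) and 764 to 1227 between NB1 and NPC2 (lowest without NB1 replicate 1). Connexins called numbered 1 to 2 for NPC1 against aNSC, 1 to 2 for NB2 against NB1, 0 to 1 for Other, 2 to 3 for DFFDA_H against DFFDA_L and 5 to 6 for DFFDA_H against qNSC (Gjd2 added without DFFDA_H replicate 3). Among differences that did not pass, direction changed for Gjd2 in aNSC against pNSC (-0.67 to 0.48), Gja1 (-0.32 to 0.49) and Gjd2 (-1.22 to 0.73) in NPC2 against NPC1, Gja1 (-0.10 to 0.44) and Gjb2 (-0.037 to 1.41) in NB2 against NB1, Gja1 (-0.38 to 0.072), Gjb6 (-0.072 to 0.96) and Gjc1 (-0.031 to 0.89) in Other, and Gjb2 (-0.33 to 0.53) and Gjd2 (-0.85 to 0.30) in DFFDA_L against aNSC.

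With the replicate number as a block (replicate block), 4103 genes were called between pNSC and qNSC, 11153 between aNSC and qNSC and 6864 between DFFDA_H and DFFDA_L, and no connexin call changed. Deviations of same-numbered libraries correlated at -0.157 to 0.238, and in no comparison did every pair exceed 0.1. Every library correlated best with its own number in aNSC against pNSC and in NPC2 against NPC1. The same held for 3 of 4 pairs in pNSC against qNSC, aNSC against qNSC and NPC1 against aNSC. In the other comparisons it held for at most 1 pair. Whether same-numbered libraries share a preparation was not tested.

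Total reads are unknown, so no counting error can be given for low values, and differences of Gjb2, Gjb6, Gjc3 and Gjd2 that involve the floor are not bounds.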
